A study of Mus musculus with 14 samples.

Results

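The genes described here are 10 members of insulin and insulin-like growth factor (IGF) signalling, measured in the brains of aged APP/PS1 mice treated or not with CP2. They are the ligands Igf1 and Igf2, the receptors Igf1r and Insr, the receptor substrates Irs1 and Irs2, the glucose transporter Slc2a4 (GLUT4) and the IGF binding proteins Igfbp2, Igfbp4 and Igfbp5. They were taken by gene name from the 43346 genes of the count table, and the choice was made with earlier results of these data known. All 10 passed the filter on low counts in each of 3 comparisons. CP2 is a small molecule that weakly inhibits complex I of the mitochondrial respiratory chain, and the study asked how its chronic use affects energy metabolism in a mouse model of Alzheimer's disease, in which brain glucose uptake and insulin signalling are often impaired.

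RNA-seq libraries came from 14 female mice of the strain C57BL/6;SJL-Tg, all 23 months old. The 4 NTG mice (wild type, non-transgenic littermates, libraries 7 to 10) and 5 APP/PS1 mice (libraries 16 to 20) drank water with the vehicle (labelled non-treated), and 5 further APP/PS1 mice (libraries 21 to 25) drank CP2 at 25 mg/kg per day for 14 months from the age of 9 months. APP/PS1 mice carry mutant human transgenes for the amyloid precursor protein and presenilin 1, labelled APP/PS1 +/+, so that Aβ is overproduced; the promoters of the transgenes are not given in the sources used here. NTG mice given CP2 were not analysed here, so an action of CP2 outside the transgenic background cannot be told apart from one within it. RNA was taken from a cross-sectional block holding hippocampus and cortex, 1 library per mouse, and p-values below measure the spread between mice.

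Insulin and the IGFs bind related receptor tyrosine kinases, which phosphorylate the substrates IRS1 and IRS2 and through them switch on PI3K, AKT, mTOR and the RAS to MAPK branch. AKT holds FOXO factors out of the nucleus, inhibits GSK3 and brings GLUT4 to the cell surface. IGF binding proteins carry IGFs in extracellular fluid and restrict or prolong their access to the receptor. In the adult brain Igf1 is made by neurons and glia, Igf2 chiefly by the meninges and choroid plexus, and Insr and Igf1r are widely expressed in neurons.

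Total counts per mouse ranged from 70548781 to 106235625, so even the lowest of the 10 genes, Slc2a4, had 115 to 439 counts per library. Levels below are CPM, counts scaled to a common library size with TMM factors, unless another unit is named, and fold changes are from edgeR's quasi-likelihood test with p-values adjusted over all genes tested. Neuronal markers were abundant in every library, with Snap25 between 1524 and 1870.4 CPM. Microglia markers summed to 459.5 to 477 CPM in NTG, 867 to 1266 in APP/PS1 and 743 to 1085 in CP2-treated APP/PS1 mice, and no marker of the list was at 0 in a whole group. One library stood apart: in APP/PS1 mouse 16 the 10 markers of the striatum, a region next to the labelled block, summed to 2660 CPM, against 209 to 402 in the other 13 mice. Differences of the 10 genes from or to the vehicle-treated APP/PS1 group are therefore also given without mouse 16. Markers of ependyma, thalamus and striatum held no call in any comparison, and 1 of 8 oligodendrocyte markers was called higher in each APP/PS1 group against NTG. Thalamus markers still summed to 314 to 524 CPM in NTG, 169 to 408 in APP/PS1 and 319 to 519 in CP2-treated APP/PS1 mice. Their median log2 difference was -0.48 in APP/PS1 against NTG and 0.59 for CP2 against vehicle. The part of dissection in the differences below was not tested. In such bulk tissue fewer cells of a type and less RNA per cell cannot be told apart.

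Promoters are shown for both receptor substrates, which are paralogues with unlike values below, and for Igfbp2 and Igfbp5, neighbours on chromosome 1 whose transcripts run towards each other and end 5457 bases apart. RefSeq windows on GRCm38.p6 run from 250 bases before to 50 bases after a transcription start and are printed 5′ to 3′ along the gene. Capitals mark matches on either strand to the GC box GGGCGG and the palindromic E-box CACGTG, and also to the CCAAT box, CCAAT, which overlaps neither.
Irs1 (chr1:82291390-82291689, minus strand): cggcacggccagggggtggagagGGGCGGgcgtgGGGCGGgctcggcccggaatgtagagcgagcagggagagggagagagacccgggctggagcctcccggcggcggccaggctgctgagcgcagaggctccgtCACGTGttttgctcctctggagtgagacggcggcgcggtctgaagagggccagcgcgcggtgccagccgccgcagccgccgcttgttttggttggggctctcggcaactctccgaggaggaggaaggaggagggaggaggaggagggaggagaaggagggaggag
Irs2 (chr8:11008880-11009179, minus strand): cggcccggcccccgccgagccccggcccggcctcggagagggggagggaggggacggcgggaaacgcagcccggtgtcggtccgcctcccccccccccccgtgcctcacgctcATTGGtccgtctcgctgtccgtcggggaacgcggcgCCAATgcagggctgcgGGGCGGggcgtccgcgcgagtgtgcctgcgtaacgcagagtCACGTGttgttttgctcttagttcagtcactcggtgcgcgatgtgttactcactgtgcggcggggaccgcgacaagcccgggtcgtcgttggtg
Igfbp2 (chr1:72824230-72824529, plus strand): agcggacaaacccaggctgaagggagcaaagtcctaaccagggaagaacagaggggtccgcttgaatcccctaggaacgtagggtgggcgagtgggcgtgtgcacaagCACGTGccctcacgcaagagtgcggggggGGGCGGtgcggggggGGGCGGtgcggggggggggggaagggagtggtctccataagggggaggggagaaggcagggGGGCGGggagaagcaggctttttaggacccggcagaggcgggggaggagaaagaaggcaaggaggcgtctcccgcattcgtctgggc
Igfbp5 (chr1:72874816-72875115, minus strand): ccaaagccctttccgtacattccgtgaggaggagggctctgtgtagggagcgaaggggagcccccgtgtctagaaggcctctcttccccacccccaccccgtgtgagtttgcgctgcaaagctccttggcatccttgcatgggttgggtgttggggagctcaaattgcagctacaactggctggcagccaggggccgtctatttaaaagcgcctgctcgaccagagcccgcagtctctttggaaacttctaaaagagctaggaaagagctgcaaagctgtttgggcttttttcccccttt
The Irs2 window lies wholly upstream of Irs2 as the count table draws it. Windows were found for 8 of the 10 genes, 12 in all with 4 for Igf2 and 2 for Igfbp2, and not for Insr and Slc2a4. The E-box CACGTG was present in 3 of the 12 windows, those of Irs1, Irs2 and Igfbp2 printed above, against 7.15% of the 32851 windows searched. The GC box was present in 6 of the 12, against 35.7% of all windows, and the CCAAT box in 3, against 37.4%. The forkhead motif GTAAACA, the kind of site that FOXO factors bind, was present in none of the 12 and in 3.65% of all windows, and the STAT motif TTCNNNGAA in none and in 8.3%. TATAAA was present only in the window of Igfbp4 among these 12, against 13.6% of all. A match is a description of letters, and the Igfbp5 window held none of the 6 motifs.

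On a scale per gene length (RPKM as deposited, group means with SD), the 10 genes spanned a wide range of levels in NTG mice. Igfbp5 was the most abundant at 30.1 ± 0.792 RPKM (SD, n = 4), followed by Igfbp2 at 17.4 ± 3.26. Irs2 at 11.3 ± 0.614, Igf2 at 11.2 ± 2.65 and Igfbp4 at 7.48 ± 1.32 RPKM overlapped from one neighbour to the next, as did Igfbp4 and Igf1r at 6.28 ± 0.294. Insr followed at 5.39 ± 0.157 RPKM, with no overlap with Igf1r in NTG mice. Irs1 at 2.63 ± 0.0397, Igf1 at 1.0 ± 0.0703 and Slc2a4 at 0.411 ± 0.102 RPKM closed the order without overlap. In both APP/PS1 groups Igf2 stood above Irs2, with overlapping values, and Igf1r overlapped Insr. The other 8 genes kept their places in all 3 groups.

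**Figure D1:**
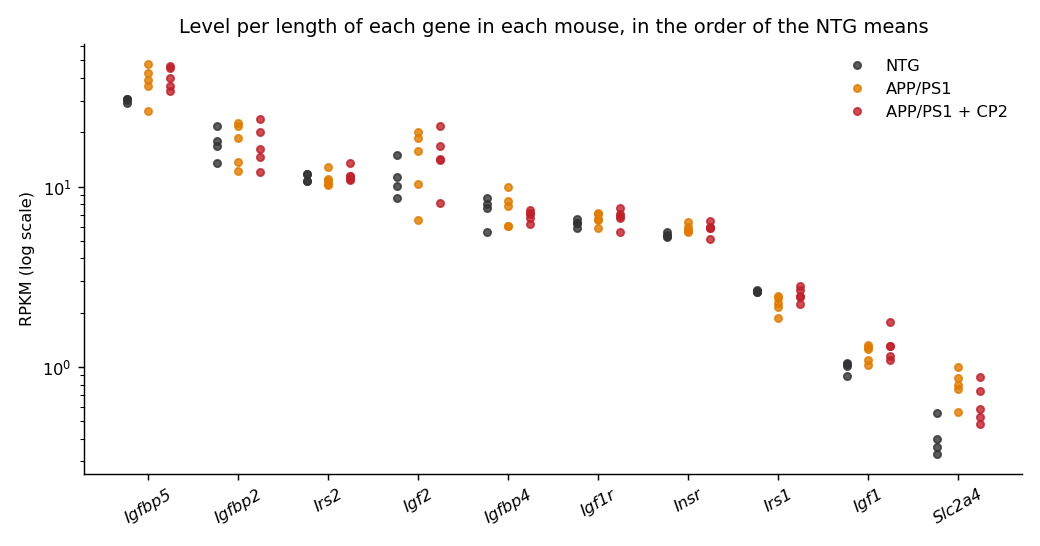
Level per length of the 10 genes (vertical axis, RPKM as deposited, log scale) in each of 14 mice (points), coloured by group and ordered by the NTG mean. Igfbp5 is highest and Slc2a4 lowest in every group, and the points of Irs2 and Igf2 overlap.

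The first comparison asked how these genes differ in APP/PS1 mice on vehicle from NTG mice. Slc2a4 was the only one of the 10 with an adjusted p under 0.05, higher in APP/PS1 mice, against 4.34% of the 16417 genes tested that were called higher and 5.68% called in either direction. Irs1 was lower at an adjusted p just above the threshold. Groups did not overlap for 1 of the 10 genes, Irs1, against 10% of all genes tested. The median log2 fold change of the 10 was 0.04, beside 0 over all genes tested.

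Slc2a4 (ENSMUSG00000018566, chr11:69942539-69948188 in mm10) encodes GLUT4, the transporter that insulin moves to the surface of muscle and fat cells and that some neurons also carry. In NTG mice 7, 8, 9 and 10 it measured 2.40, 1.78, 1.45 and 1.52 CPM. In APP/PS1 mice 16 to 20 the values were 2.36, 3.49, 4.05, 3.32 and 3.24 CPM. All APP/PS1 mice other than mouse 16 lay above every NTG mouse, and mouse 16 lay just under NTG mouse 7. Slc2a4 rose 1.85-fold (95% interval 1.37 to 2.49; log2 0.89, SE 0.19, adjusted p = 0.0245). Without mouse 16 the log2 difference was 0.99 (adjusted p = 0.00522). The direction held with each mouse left out, but the call was lost without NTG mouse 8, 9 or 10 (adjusted p = 0.069, 0.0864 and 0.073) and without APP/PS1 mouse 17, 18, 19 or 20 (adjusted p = 0.0536, 0.0573, 0.0556 and 0.053). In CP2-treated mice 21 to 25 Slc2a4 measured 3.05, 3.61, 2.11, 2.44 and 2.20 CPM, a range that overlapped both other groups.

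Irs1 (ENSMUSG00000055980, chr1:82233101-82291416), the substrate first found below the insulin receptor, measured 29.3, 30.7, 31.2 and 29.2 CPM in NTG mice 7 to 10. In APP/PS1 mice 16 to 20 it measured 20.7, 23.9, 26.5, 26.4 and 24.5 CPM. Every APP/PS1 mouse lay below every NTG mouse, with mouse 16 the lowest. The summed 6 markers of dentate gyrus likewise did not overlap between the groups, at 308 to 355 CPM in NTG and 218 to 296 CPM in APP/PS1 mice. Mouse 16 was again the lowest (median log2 difference -0.66, 1 of 6 called lower). In CP2-treated APP/PS1 mice they summed to 268 to 295 CPM, with 2 of 6 called lower against NTG, while Irs1 there overlapped NTG (log2 -0.10). The part of these markers in the Irs1 difference was not tested. For vehicle-treated APP/PS1 against NTG mice the fitted Irs1 ratio was 0.815 (95% interval 0.725 to 0.917; log2 -0.29, SE 0.08, adjusted p = 0.0538), so Irs1 did not pass. It passed without mouse 16 (log2 -0.24, adjusted p = 0.025) or mouse 19 (log2 -0.33, adjusted p = 0.0459), and under DESeq2 (0.00481), RLE factors (0.0423), a fit without the count filter (0.0488), one with at least 10 counts in each library (0.0487), a joint fit of the 3 groups (0.028) and limma-voom (0.0176). These were 2 of the 9 fits that left out 1 mouse each, over which the adjusted p ran up to 0.15. Irs1 also did not pass with upper-quartile factors.

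The Irs1 counts can hold reads that were also counted on another gene. Gm9747 lies on the plus strand over 2822 bases of Irs1, the library kit did not mark strand, and reads were counted on each gene they overlapped. Gm9747 had 676 to 1210 counts per mouse, together 37.6% of those of Irs1, and its own log2 difference was -0.14 (adjusted p = 0.571). With the Gm9747 counts subtracted from those of Irs1, an alternative chosen after seeing the data, the log2 difference of Irs1 was -0.39 (SE 0.07, adjusted p = 0.00753). How many reads both genes share, and from which strand, was not tested.

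Irs2 (ENSMUSG00000038894, chr8:10986980-11008458), the second substrate, measured 53.2 to 60.7 CPM in NTG mice and 50.5, 59.4, 51.8, 51.5 and 50.9 CPM in APP/PS1 mice 16 to 20. Only mouse 17 among the APP/PS1 mice lay inside the NTG range. The log2 difference was -0.10 (95% interval -0.23 to 0.03, adjusted p = 0.433), and -0.08 without mouse 16. 9530052E02Rik, which overlaps Irs2 over 609 bases on the other strand, had total counts equal to 7.36% of those of Irs2. How many reads were counted on both was not measured.

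Of the ligands, Igf1 (ENSMUSG00000020053, chr10:87858265-87937042) measured 11, 13.5, 13.1 and 12.1 CPM in NTG and 12.4, 15.2, 15.0, 15.0 and 13.5 CPM in APP/PS1 mice. The ranges overlapped through mouse 16, at 12.4 CPM, and mouse 20 was level with NTG mouse 8 at 13.5 CPM. The fold was 1.15 (95% interval 1 to 1.32, unadjusted p = 0.0453, adjusted p = 0.253), which did not pass, where 18.7% of the genes tested had an unadjusted p under 0.05. Without mouse 16 the log2 difference of Igf1 was 0.25 (adjusted p = 0.0897), beside 0.20 with it. Igf2 (ENSMUSG00000048583, chr7:142650766-142666816), a growth factor gene known for imprinting, varied most within groups, with 63.1 to 110 CPM in NTG and 45.3 to 133 CPM in APP/PS1 mice and a log2 difference of 0.27 (95% interval -0.39 to 0.93, adjusted p = 0.694). Without mouse 16, the lowest in Igf2, it was 0.45 (adjusted p = 0.233), and it ran from 0.13 to 0.46 over the fits that left out 1 mouse each.

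The receptors differed little between the groups. Insr (ENSMUSG00000005534, chr8:3150922-3279617) had a coefficient of variation of 1.8% over the NTG and 6.28% over the APP/PS1 mice, and a log2 difference of 0.06 (95% interval -0.04 to 0.17, adjusted p = 0.542). For Igf1r (ENSMUSG00000005533, chr7:67952859-68226780) the coefficients of variation were 4.93% and 9.89%. Its log2 difference was 0.02 (95% interval -0.15 to 0.19, adjusted p = 0.915). Without mouse 16 they were 0.03 for Insr and -0.0025 for Igf1r. The intervals over all mice leave room for a change of no more than 0.19 on the log2 scale in either direction.

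Among the binding proteins, Igfbp5 (ENSMUSG00000026185, chr1:72857932-72874884), which binds IGFs and extracellular matrix, measured 224, 238, 222 and 223 CPM in NTG mice and 192, 249, 299.6, 346 and 289.9 CPM in APP/PS1 mice 16 to 20. Of the APP/PS1 mice 4 lay above every NTG mouse and mouse 16 lay below all of them. The log2 difference was 0.29 (SE 0.15, adjusted p = 0.326) with mouse 16 and 0.40 (adjusted p = 0.0247) without it. Igfbp2 (ENSMUSG00000039323, chr1:72824503-72852474), an abundant binding protein of choroid plexus and astrocytes, spanned 32.1 to 51.5 CPM in NTG and 27.2 to 48 CPM in APP/PS1 mice. Igfbp4 (ENSMUSG00000017493, chr11:99041244-99054392), an inhibitory binding protein, spanned 30.7 to 49.7 and 31.4 to 53.2 CPM. Their log2 differences were -0.05 (adjusted p = 0.933) and -0.03 (adjusted p = 0.946), with ranges that overlapped almost entirely. Without mouse 16 they were 0.06 for Igfbp2 and -0.15 for Igfbp4 (adjusted p = 0.877 and 0.63).

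**Figure D2:**
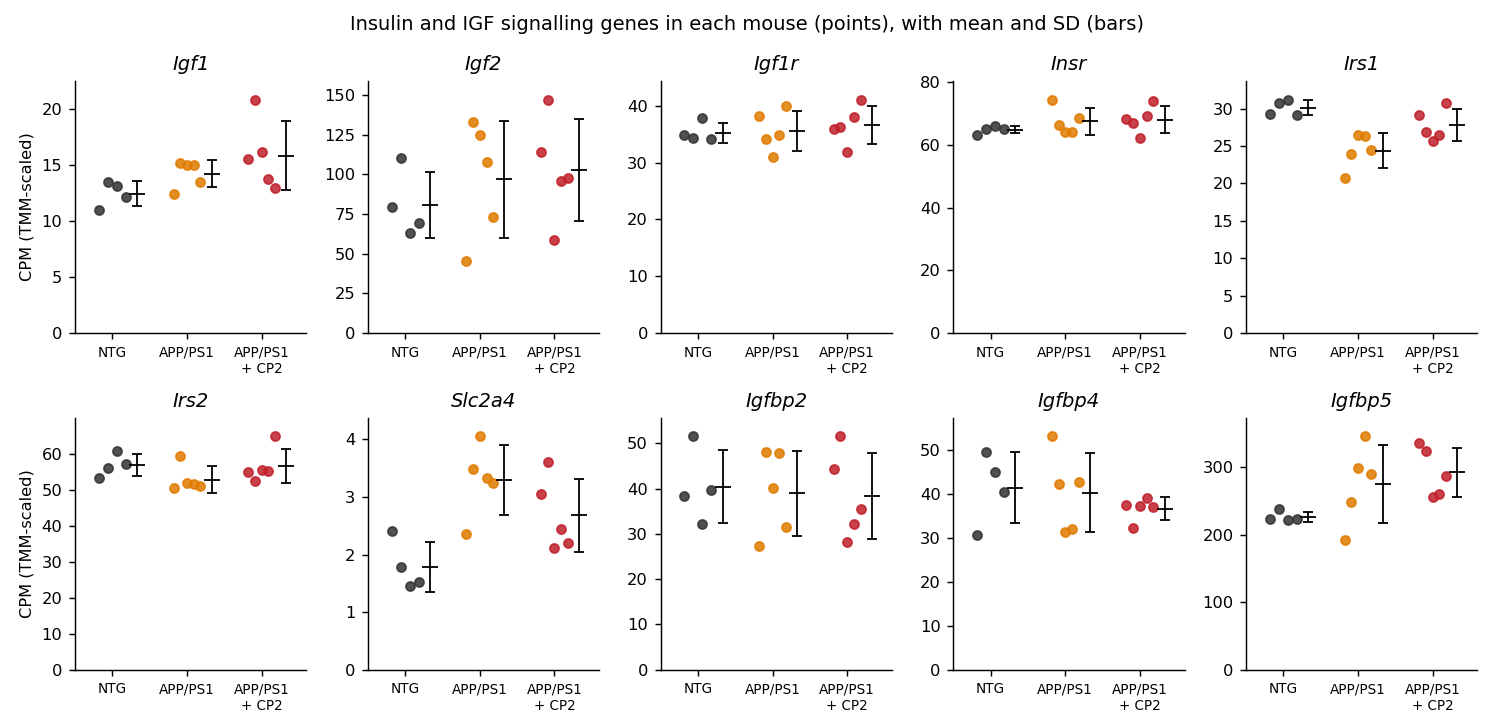
CPM after TMM scaling (vertical axis, from 0) of each of the 10 genes in NTG (n = 4), vehicle-treated APP/PS1 (n = 5) and CP2-treated APP/PS1 mice (n = 5); points are mice and bars the mean with SD. Slc2a4 has group means of 1.79, 3.29 and 2.68 CPM and Irs1 of 30.1, 24.4 and 27.8 CPM, while the points of Igf1r and Igfbp2 overlap across the groups.

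The second comparison asked what CP2 changed in APP/PS1 mice. None of the 10 genes had an adjusted p under 0.05 in edgeR, DESeq2 or limma-voom, against 0.00609% of the 16407 genes tested in edgeR, which is 1 gene. At an unadjusted p under 0.05 there was 1 of the 10, Irs1, against 6.55% of all genes. No group pair was free of overlap among the 10, against 1.14% of all genes. The median log2 fold change of the 10 was 0.06, beside -0.01 over all genes tested.

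Irs1 measured 29.2, 26.9, 25.7, 26.5 and 30.8 CPM in CP2-treated mice 21 to 25. Mice 21, 22 and 25 lay above every vehicle-treated APP/PS1 mouse, mouse 24 was level with the highest of them at 26.5 CPM, and mouse 23 lay within their range. The fold against vehicle was 1.14 (95% interval 1.01 to 1.28; log2 0.19, SE 0.08, unadjusted p = 0.0324, adjusted p = 0.744). Without mouse 16 the log2 difference was 0.14 (adjusted p = 0.528).

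Slc2a4 had a log2 difference of -0.29 (95% interval -0.69 to 0.10, adjusted p = 0.758) for CP2 against vehicle in APP/PS1 mice, and -0.39 (adjusted p = 0.505) without mouse 16. The interval holds both no difference and a ratio as low as 0.622. Igf1 measured 15.5, 20.8, 16.1, 13.7 and 12.9 CPM in CP2-treated mice, with mouse 22 well above the others, and a log2 difference of 0.15 (95% interval -0.11 to 0.42, adjusted p = 0.807), or 0.11 without mouse 16. Igf2 spanned 58.4 to 147 CPM and differed by 0.08 (95% interval -0.57 to 0.73), which turned to -0.10 without mouse 16.

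The receptors had log2 differences of 0.01 (95% interval -0.12 to 0.14) for Insr, the narrowest interval of the 10, and 0.04 (95% interval -0.14 to 0.23) for Igf1r. Without mouse 16 they were 0.05 and 0.07. Irs2 differed by 0.10 (95% interval -0.05 to 0.24), or 0.09 without mouse 16, with CP2-treated mouse 25 at 64.8 CPM the highest of all 14 mice. Igfbp5 differed by 0.09 (95% interval -0.23 to 0.40) with mouse 16 and by -0.02 without it. Igfbp2 differed by -0.02 (95% interval -0.45 to 0.41) and Igfbp4 by -0.14 (95% interval -0.43 to 0.16). Without mouse 16 Igfbp2 differed by -0.13 (adjusted p = 0.832) and Igfbp4 by -0.01 (adjusted p = 0.972). Igfbp4 spanned 32.4 to 39.2 CPM in CP2-treated mice, a coefficient of variation of 6.97% beside 22.3% in the vehicle-treated group.

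The third comparison, CP2-treated APP/PS1 against NTG mice, shares its mice with the other 2 comparisons, so values are given side by side only. Igfbp5 was the only one of the 10 genes with an adjusted p under 0.05, against 6.02% of the 16416 genes tested, and the only one without overlap between groups, against 9.61%. Igfbp5 measured 336, 324, 256, 259.9 and 287 CPM in mice 21 to 25, all above the highest NTG mouse at 238 CPM. It was 1.3-fold higher (95% interval 1.14 to 1.48; log2 0.38, SE 0.08, adjusted p = 0.0239). The call was lost without NTG mouse 9 (adjusted p = 0.0732) or 10 (0.0687), without CP2-treated mouse 22 (0.0538) and with all 3 groups in one fit (0.16). Of the 12 markers of endothelium and pericytes, 6 were also called higher in this comparison and none lower, with summed levels of 384 to 445 CPM in CP2-treated APP/PS1 and 291 to 322 CPM in NTG mice. Their part in the Igfbp5 difference was not tested.

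Slc2a4 had a log2 difference of 0.60 (95% interval 0.15 to 1.04, adjusted p = 0.123) in CP2-treated APP/PS1 against NTG mice, beside 0.89 for vehicle-treated APP/PS1 against the same NTG mice. It passed under limma-voom (adjusted p = 0.0434) and without NTG mouse 7 (0.0461). For Irs1 the values were -0.10 (95% interval -0.24 to 0.04) beside -0.29, for Igf1 0.36 (95% interval 0.08 to 0.64, adjusted p = 0.141) beside 0.20, and for Igf2 0.36 beside 0.27. Irs2, the receptors, Igfbp2 and Igfbp4 had log2 differences between -0.16 and 0.08, with adjusted p from 0.427 to 0.972. The median of the 10 was 0.07, beside 0 over all genes tested.

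**Figure D3:**
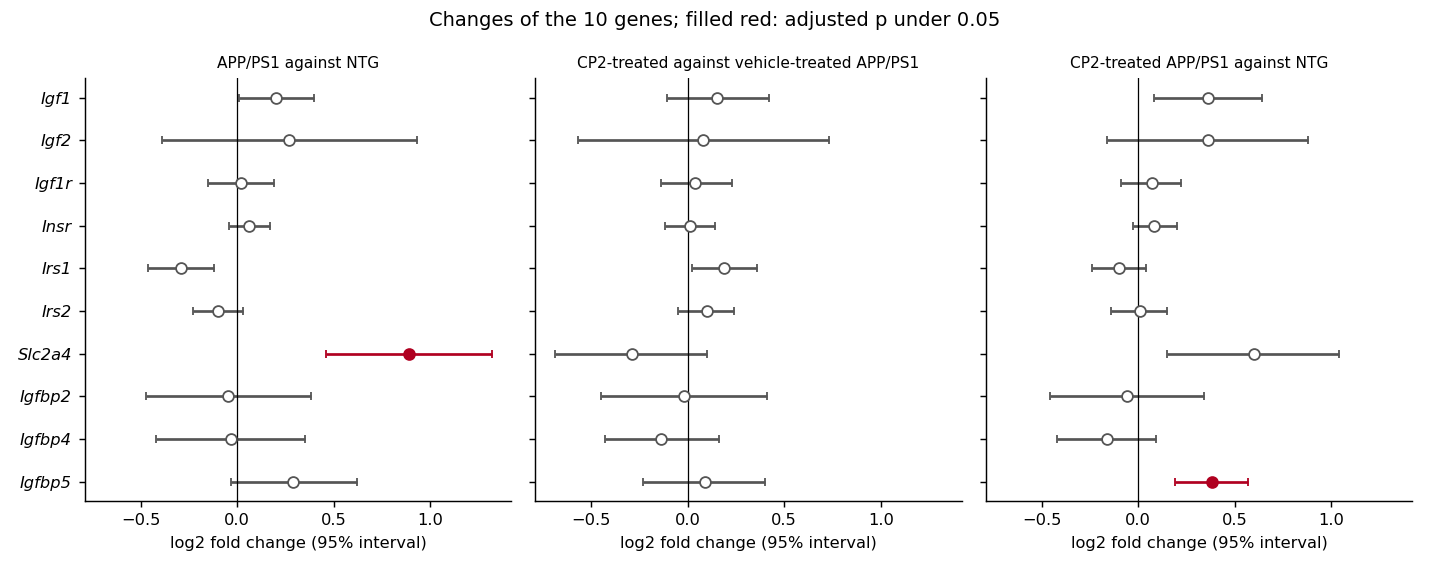
Log2 fold changes of the 10 genes (points) with 95% intervals (bars) from edgeR in the 3 comparisons, with adjusted p under 0.05 filled in red. Slc2a4 is called in APP/PS1 against NTG at 0.89, Igfbp5 in CP2-treated APP/PS1 against NTG at 0.38, and none in CP2-treated against vehicle-treated APP/PS1.

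Igf1 was set against markers of cells that are known to make it, as a ratio of Igf1 to the summed CPM of a marker list in each mouse. In APP/PS1 against NTG mice 11 of 12 microglia markers were called higher, with a median log2 fold change of 1.15, while Igf1 differed by 0.20. The ratio of Igf1 to microglia markers was 0.501 times that of NTG mice (log2 -1.0), with no overlap between the groups. Its exact permutation p (two-sided) was 0.0159, the smallest that 4 against 5 mice allow, and 0.0741 after adjustment over the 14 ratios tested. The rise of the marker sum was known beforehand, so this ratio mainly restates it and cannot tell about Igf1 per microglial cell. Markers of the list rose unequally. Mean P2ry12 was 40.2 CPM in NTG and 49.7 CPM in APP/PS1 mice, and mean Tmem119 20.1 and 26.9 CPM. Against plaque-associated microglia markers the log2 difference was -1.01 (exact permutation p = 0.0159, adjusted 0.0741). Of that list 10 of 12 markers were called higher, with a median log2 fold change of 2.2. Its sum ran from 176 to 223 CPM in NTG and from 339 to 518 CPM in APP/PS1 mice. Mean Cst7 was 0.646 CPM in NTG and 32.2 CPM in APP/PS1 mice, so the ratio depends on how the list is summed. Against neuronal markers, of which 0 of 9 were called, it was 0.26 (exact permutation p = 0.0952, adjusted 0.267).

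For CP2 against vehicle the ratio of Igf1 to microglia markers was 1.31 times higher (log2 0.39, exact permutation p = 0.0159, adjusted 0.0741), and to plaque-associated microglia markers 1.24 times (exact permutation p = 0.0238, adjusted 0.0833). None of the 14 ratios passed after adjustment. No microglia marker was called in this comparison, with a median log2 fold change of -0.20. The share of Igf1 made by microglia was not measured.

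Igf2 and Igfbp2 varied together from mouse to mouse, with Pearson's r = 0.92 and Spearman's rho = 0.96 over the 14 mice after centring log2 CPM within each group. This is a description, and the values share each mouse's library and dissection. Choroid plexus markers varied far more than either gene, from 34.7 to 1007 CPM summed in NTG, 35.6 to 1429 in APP/PS1 and 208 to 793 in CP2-treated APP/PS1 mice, led by Ttr with 4.57 to 1260.5 CPM. Markers of meninges and fibroblasts summed to 141 to 218, 102 to 244 and 147 to 249 CPM. Mouse 16 was the lowest of the 14 in Igf2, Igfbp2 and these meningeal markers. The 8 ratios of Igf2 and Igfbp2 to either list, tested for APP/PS1 against NTG and for CP2 against vehicle, gave exact permutation p from 0.254 to 0.976, and the part of these lists in the levels of both genes was otherwise not tested.

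**Figure D4:**
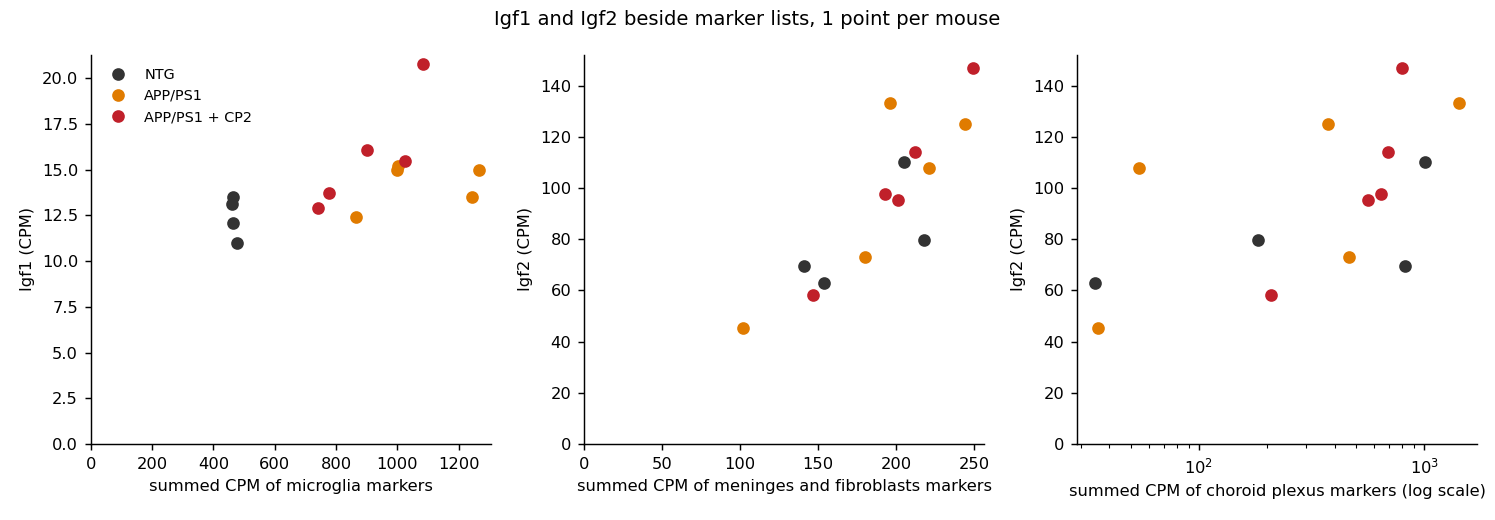
Igf1 against summed microglia markers, and Igf2 against summed markers of meninges and fibroblasts and of choroid plexus (CPM on all axes, choroid plexus on a log axis), 1 point per mouse. Microglia markers separate NTG (459.5 to 477 CPM) from both APP/PS1 groups while Igf1 overlaps, and Igf2 is lowest in the mouse with the fewest meningeal markers (102 CPM).

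The genes most like each of the 10 across mice were named by Pearson's r of group-centred log2 CPM over 14 mice among 16521 genes, as a description. The r that a search over so many genes reaches by chance was not measured. Igf2 lay closest to Slc13a4 (r = 0.98), a transporter of the meninges, Aebp1 (0.95) and Col4a5 (0.94). Among the genes closest to Igfbp2 were Foxj1 (0.92), a regulator of motile cilia in ependyma, and Igf2. Insr lay closest to Spty2d1, Suv420h1 and Zfp334 (0.95 each) and Igf1r to Cacna1d (0.93), Rbm5 (0.92) and Mlxip (0.91), and the receptors were like each other at r = 0.82. Irs2 lay closest to 9530052E02Rik (0.95), which overlaps it and can share reads with it. Next were the immediate early gene Nr4a3 (0.86) and Mir8104 (0.84). Both fell, to 0.56 and 0.59, without the 2 mice farthest from the median and so rest largely on those mice. Irs1 lay closest to Atp7b (0.94), Ddx60 (0.93) and Lmo1 (0.92), and Slc2a4 to Zfp606 (0.94), Pbdc1 (0.94) and Gstm2 (0.93). For Igfbp5 they were S1pr3 (0.97), Fmnl3 (0.96) and Gna13 (0.96), and for Igfbp4 R3hdm2 (0.97), Nlk (0.97) and Dlgap2 (0.95). For Igf1 they were Bloc1s2-ps (0.87), Sephs1 (0.86) and Scrg1 (0.85). Without the 2 farthest mice these fell to 0.75, 0.78 and 0.63. Among pairs of the 10, Irs1 and Igfbp5 had r = 0.79, Irs1 and Irs2 0.38, and Slc2a4 and Igfbp4 -0.70, the lowest. Slc2a4 varied with Igf2 (r = 0.76, Spearman's rho 0.84) and Igfbp2 (r = 0.68, rho 0.78).

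The other genes of the pathway were read from a list of 95 genes in 12 roles, of which 80 were tested in each comparison. The 15 not tested included all 7 other ligands of the list. Ins1 had 0 counts in all 14 mice, which allows up to 3 counts per library, and Ins2 had 0 to 18 counts, so that insulin itself was close to undetectable as brain mRNA at this depth. In APP/PS1 against NTG mice 3 of 80 genes rose and 0 fell at an adjusted p under 0.05 (4.34% and 1.34% of all genes tested), and 10 were higher and 5 lower at an unadjusted p under 0.05 (10.6% and 8.05% of all genes tested). For CP2 against vehicle in APP/PS1 mice 0 of 80 passed in edgeR, DESeq2 or limma-voom, with 4 higher and 2 lower at an unadjusted p under 0.05 (2.88% and 3.66% of all genes). In CP2-treated APP/PS1 against NTG mice 3 rose and 2 fell (4.56% and 1.46% of all genes), and 15 were higher and 5 lower unadjusted (11.6% and 8.59%, together 20.2%). The medians over the 80 genes were 0.01, 0.01 and 0.02, beside 0, -0.01 and 0 over all genes tested.

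The 3 genes called higher in APP/PS1 mice in edgeR, 3.75% of those tested against 4.34% of all genes, were Inpp5d, Socs3 and Igfbp7. With DESeq2 11 genes of the list were called and with limma-voom 10, so no shared role is read from these 3. Inpp5d, which encodes the SHIP1 phosphatase that removes the lipid made by PI3K and is known from microglia and blood cells, measured 12 to 13.4 CPM in NTG and 21.8 to 35.4 CPM in APP/PS1 mice (log2 1.18, SE 0.14, adjusted p = 0.00109). Socs3, a feedback inhibitor of cytokine receptors that also binds the insulin receptor, measured 2.46 to 3.08 and 4.22 to 8.31 CPM (log2 1.12, SE 0.19, adjusted p = 0.00672). Igfbp7, a low-affinity relative of the IGF binding proteins expressed in vessels, measured 11.2 to 12.9 and 15.4 to 20.9 CPM (log2 0.57, SE 0.10, adjusted p = 0.00667). All APP/PS1 mice lay above all NTG mice for each of the 3 genes, and the calls held without mouse 16. Groups did not overlap for 7 of the 80 list genes tested (8.75%), against 10% of all genes tested. Microglia markers rose in the same comparison (11 of 12), and 1 of 12 markers of endothelium and pericytes did, from 291 to 322 to 340.5 to 496 CPM summed. Of the 5 blood markers 2 were called higher (median log2 1.06), with sums of 82.5 to 152 CPM in NTG and 114 to 471 CPM in APP/PS1 mice. The part of these lists in the 3 differences was not tested.

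In CP2-treated APP/PS1 against NTG mice Inpp5d (log2 0.96, adjusted p = 0.00105) and Igfbp7 (log2 0.57, adjusted p = 0.00161) were again higher, and Socs3 did not pass (log2 0.74, adjusted p = 0.0662). Htra1, a secreted protease that cleaves IGF binding proteins, fell from 114 to 128 CPM in NTG to 79.6 to 89.4 CPM in CP2-treated APP/PS1 mice, without overlap (log2 -0.48, SE 0.05, adjusted p = 0.000352). Of the 80 list genes tested, 6 (7.5%) were without overlap in that comparison, against 9.61% of all genes tested. In vehicle-treated APP/PS1 mice Htra1 spanned 91.3 to 130.5 CPM (log2 -0.17 against NTG, adjusted p = 0.506). Astrocyte markers, a cell type in which Htra1 is known, were called lower for 3 of 8 and higher for 1 of 8 in CP2-treated APP/PS1 against NTG mice, with sums of 4409 to 4777 and 5027 to 5612 CPM, and their part was not tested.

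Akt2, the AKT kinase most tied to insulin action, was lower in CP2-treated APP/PS1 than in NTG mice, at 58.7 to 64.3 against 71.1 to 77.1 CPM (log2 -0.24, adjusted p = 0.0109, and 0.178 with all 3 groups in one fit). Vehicle-treated APP/PS1 mice spanned 57.9 to 85.7 CPM, with mice other than mouse 16 at most at 64.2 CPM, and Akt2 differed there by -0.14 against NTG (adjusted p = 0.527) and by -0.10 for CP2 against vehicle (adjusted p = 0.832). Ptprf, a receptor phosphatase that acts on the insulin receptor, was higher in CP2-treated APP/PS1 than in NTG mice (log2 0.26, adjusted p = 0.0463), beside 0.24 (adjusted p = 0.0677) for vehicle-treated APP/PS1 against NTG and 0.01 for CP2 against vehicle. The call of Ptprf was lost under 3 other settings (0.051 to 0.058) and without any 1 of NTG mice 7, 8 and 9 or CP2-treated mice 21, 22, 24 and 25 (0.0767 to 0.135).

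Under CP2 against vehicle the smallest p of the list were those of Htra1 (log2 -0.32, unadjusted p = 0.0142), Shc3 (log2 0.30, unadjusted p = 0.0181), a neuronal adaptor, and Igf2bp3 (log2 0.28, unadjusted p = 0.0236), an mRNA binding protein, each with an adjusted p of 0.744 in edgeR's test. Htra1 was lower in all 5 CP2-treated mice, at most 89.4 CPM, than in any vehicle-treated APP/PS1 mouse, at least 91.3 CPM. It was the only 1 of the 80 list genes tested without overlap there (1.25%), against 1.14% of all genes tested. Slc2a3, the neuronal glucose transporter GLUT3, had log2 differences of 0.05 in APP/PS1 against NTG, -0.03 for CP2 against vehicle and 0.02 in CP2-treated APP/PS1 against NTG mice, with no call. Igf2r, which clears IGF2, had 0.14, 0 and 0.14, Gsk3b, the kinase that AKT inhibits, 0.02, 0.06 and 0.08, and Ide, the protease that degrades insulin and Aβ, 0.04, 0 and 0.04, likewise with no call.

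**Figure D5:**
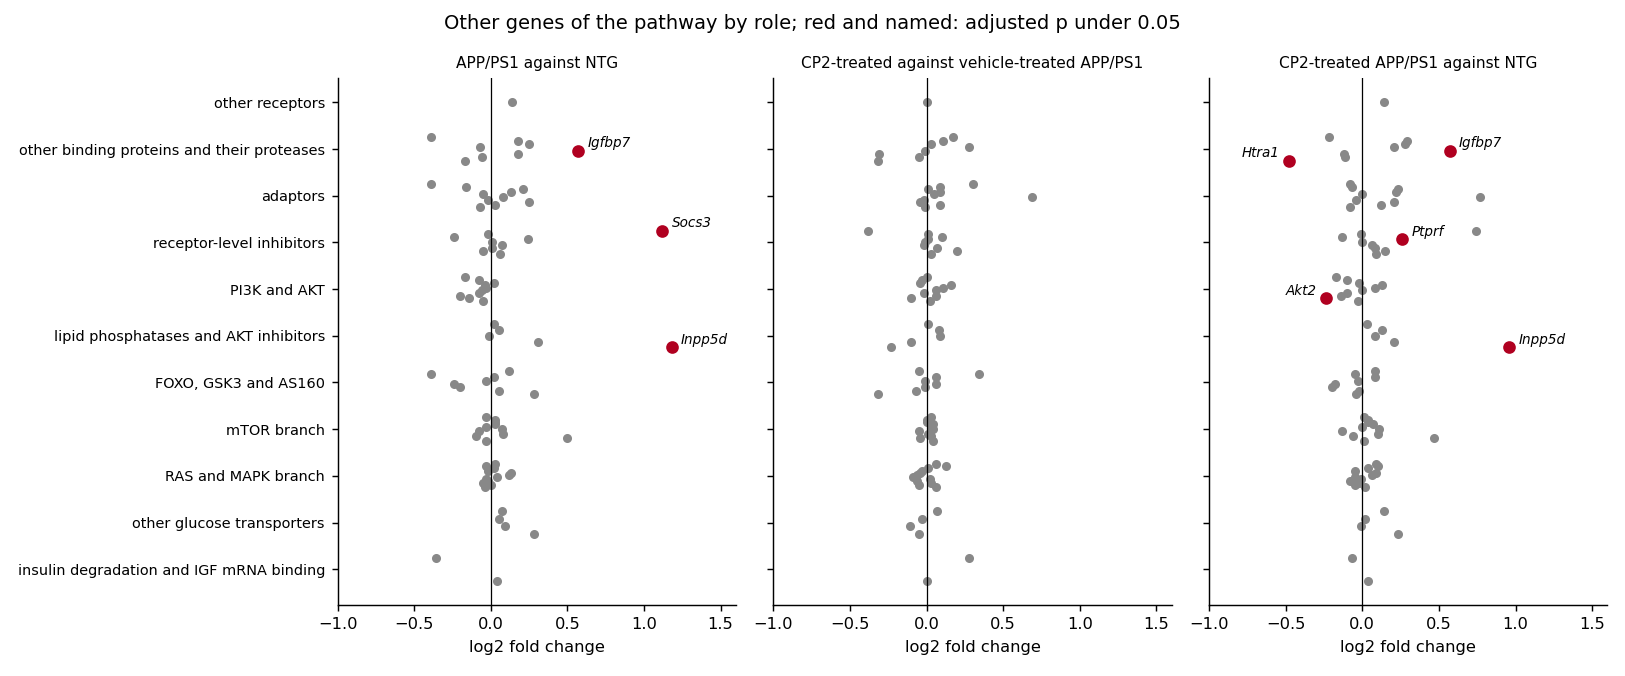
Log2 fold changes (horizontal axis) of the 80 other pathway genes tested, 1 point per gene, by role (vertical axis) in the 3 comparisons, with adjusted p under 0.05 in red and named. Inpp5d, Socs3 and Igfbp7 stand out in APP/PS1 against NTG, none is called in CP2-treated against vehicle-treated APP/PS1, and Htra1 is the lowest in CP2-treated APP/PS1 against NTG at -0.48.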

How the data were processed

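Brain RNA was sequenced by the authors from TruSeq RNA v2 libraries, a kit that does not mark strand. The submitters' processing notes name bcl2fastq, TopHat and featureCounts from Subread with the mm10 build, and versions of these tools are not given in the sources used here. The authors counted a read on each gene it overlapped and deposited counts per gene without normalization, together with RPKM values of their own. The RPKM values were used here to order levels between genes and in an alternative form of the ratios to marker lists. Gene positions are those of the table, and 0 per-sample columns were left out.

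Pairs of groups were fitted separately in edgeR 4.0.16 (R 4.3.3) by glmQLFit and glmQLFTest with TMM factors and no covariate, and p-values were adjusted after Benjamini and Hochberg over all genes tested. As in the study's R script, a gene entered the test if all mice of 1 group, or of both, had a robust CPM above 1. Here a gene was called at an adjusted p under 0.05. Standard errors and 95% intervals are those implied by the test statistic. Alternatives were DESeq2 1.42.0, RLE or upper-quartile factors, no filter, at least 10 counts in every mouse, 1 fit of all 3 groups, limma-voom (limma 3.58.1, weighted by sample quality), and fits without each single mouse. Subtracting the counts of an overlapping gene was added after seeing the data. Fits were tested on simulated counts. The planted changes were larger than any fitted difference of the 10 genes over all mice, with the same spread for every gene. Smaller changes and unequal spread were therefore not covered. Ratios to marker lists were tested by exact permutation, two-sided, over mice. Their alternatives were a ratio of RPKM and a ratio to the mean of log2 CPM of the list. Likeness used log2(CPM + 0.01). No 2 replicates agreed within sampling noise (26 pairs). Other steps used Python 3.11.15 (scipy 1.17.1, numpy 2.4.6, matplotlib 3.10.9, pandas 2.3.3).

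The 10 genes, the pathway list and the 13 marker lists were chosen with earlier results of these data known. Named were all 10 genes in every comparison; of the pathway list every gene with an adjusted p under 0.05 in any comparison, the 3 with the smallest p where a comparison had none, and always Slc2a3, Igf2r, Gsk3b and Ide; and for each of the 10 the 3 genes with the highest Pearson r. A gene of the pathway list, left out of its counts, and one of the genes most alike are not reported here. The overlapping genes were named because reads can be counted on both genes of a pair. Limits from counts cover counting error only.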

Additional observations from a re-analysis of the deposited data

Results flagged for a closer look

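Of 81 groups of 4 or 5 mice examined, 6 held 1 mouse far from the others relative to the range of the group (Dixon's 95% critical value), where chance gives about 1 in 20. Irs2 in APP/PS1 mouse 17 was 59.4 CPM, with the next mouse at 51.8 CPM. Irs2 in CP2-treated APP/PS1 mouse 25 was 64.8 CPM, with the next at 55.4 CPM. Igfbp4 in CP2-treated APP/PS1 mouse 22 was 32.4 CPM, below the next at 37.2 CPM. Igfbp5 in NTG mouse 8 was 238 CPM, with the other 3 NTG mice at 222 to 224 CPM. Akt2 in APP/PS1 mouse 16, the mouse with high striatal markers, was 85.7 CPM, with the next at 64.2 CPM. The log2 ratio of Igfbp2 to choroid plexus markers in CP2-treated APP/PS1 mouse 23 was -2.89, with the next at -3.94.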

How the results depend on the processing

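No paired analysis was possible because the library numbers 7 to 10, 16 to 20 and 21 to 25 are not shared between groups. With 4 or 5 mice a group, depth did not limit the counts, and the spread between mice set the intervals. Causes of the changes below were not tested.

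In APP/PS1 against NTG, genes called numbered 1667 with DESeq2 and 1563 with limma-voom, against 932 with edgeR. Of the 10 insulin and IGF genes, 2 were called with DESeq2, RLE factors, no filter, at least 10 counts, all 3 groups in one fit or limma-voom. Pathway genes called numbered 11 with DESeq2, 7 with all 3 groups in one fit and 10 with limma-voom. Under limma-voom Igf1r turned to -0.01 and Igfbp2 to 0.03 (log2). For CP2 against vehicle, 23 genes were called with DESeq2 and 0 with all 3 groups in one fit. In CP2-treated APP/PS1 against NTG, 1670 genes were called with DESeq2, and of the 10 genes 0 with all 3 groups in one fit and 2 with limma-voom. There Irs2 turned to -0.00078 without a filter and -0.03 under limma-voom. The directions of Slc2a4, Irs1 and Igf1 in APP/PS1 against NTG, and of Igfbp5 in CP2-treated APP/PS1 against NTG, were the same in every fit run.

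Leaving out each mouse in turn gave these lowest and highest values. In APP/PS1 against NTG, 578 genes (NTG mouse 9 left out) to 1474 (APP/PS1 mouse 16 left out) were called, 0 to 3 of the 10 genes, and 3 to 8 pathway genes (8 without mouse 16). Log2 differences ran from -0.02 to 0.07 for Igf1r, -0.14 to 0.10 for Igfbp2 and -0.15 to 0.07 for Igfbp4. For CP2 against vehicle, 0 genes (without CP2-treated mouse 22) to 1 were called, and 2 to 8 pathway genes at an unadjusted p under 0.05. Differences ran from -0.10 to 0.23 for Igf2, -0.01 to 0.09 for Igf1r, -0.03 to 0.05 for Insr, -0.15 to 0.08 for Igfbp2 and -0.02 to 0.19 for Igfbp5. In CP2-treated APP/PS1 against NTG, 572 to 1123 genes were called (572, 616 and 623 without NTG mouse 9, CP2-treated mouse 21 and NTG mouse 8), 0 to 2 of the 10 genes, and 11 (without NTG mouse 8) to 22 pathway genes at an unadjusted p under 0.05. Differences ran from -0.05 to 0.04 for Irs2 and -0.19 to 0.08 for Igfbp2. Differences of log2 ratios in APP/PS1 against NTG ran from -0.09 to 1.39 for Igf2 and -0.34 to 1.13 for Igfbp2 over choroid plexus markers, and -0.23 to 0.00048 for Igfbp2 over markers of meninges and fibroblasts. For CP2 against vehicle they ran from -0.01 to 0.18 for Igf1 over neuronal markers and -0.08 to 0.11 for Igf2 over markers of meninges and fibroblasts.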
